A study of Mus musculus with 6 samples.

Results

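The mouse mitochondrial genome (chrM in GRCm38) carries 37 annotated genes, and all 37 were taken as the gene set described here, out of 55421 gene identifiers in the count files. They comprise 2 ribosomal RNAs (rRNAs), 13 messenger RNAs (mRNAs) and 22 transfer RNAs (tRNAs). Members were chosen by their place on the mitochondrial chromosome, through GENCODE M21 annotation, and not by any measured value. Earlier results of these data were known when this set was chosen. RNA-seq was done on corneas of mice aged 20 weeks, with 3 libraries labelled Heterozygous mutant PAX6 (here mutant) and 3 labelled WT (here wildtype), which the series design calls biological replicates. The labels do not name the Pax6 allele, the strain or the sex, and do not say whether corneas were pooled. Pax6 encodes a transcription factor needed for eye development and for upkeep of the corneal epithelium.

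Mitochondrial DNA is transcribed by Polrmt, a single-subunit RNA polymerase that works with Tfam and Tfb2m, into long precursors from either strand. The tRNAs lie between most of the longer genes, and their excision releases the rRNAs and mRNAs. The mRNAs encode core subunits of respiratory complexes I, III and IV and of ATP synthase, whose remaining subunits are encoded in the nucleus. The rRNAs build the mitochondrial ribosome that translates them.

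Each library held between 16858005 and 21846406 counts in genes, and 15209 genes passed the low-count filter and were tested. Levels are given as CPM (counts per 1000000 counts of the library), scaled by factors that adjust for library composition, and as CPM per kilobase (kb) where genes are compared with each other. A gene was called when its Benjamini-Hochberg adjusted p in edgeR's quasi-likelihood test fell below 0.05. By that rule 5.59% of all tested genes were called higher in mutant corneas and 4.46% lower, 10.1% in all. Pax6 itself, the check of the labels, stood at 401 ± 49.1 CPM in mutant and 790 ± 53.5 CPM in wildtype corneas (SD, n = 3 each), a log2 difference of -0.98 ± 0.14 (SE, adjusted p = 0.0042).

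Before the levels can be read, the sequences matter, because long stretches of mitochondrial DNA also lie in the nuclear genome. On chromosome 1, 7 annotated pseudogenes at chr1:24611535-24616197 (GRCm38, minus strand) follow each other in the order of the mitochondrial genes, over 4663 bases that correspond to chrM:6390-11042. In 5 of the 6 gaps between neighbours the spacing equals that on mitochondrial DNA. Inside this block lie the whole of mt-Co2, mt-Atp8, mt-Atp6, mt-Co3, mt-Nd3 and mt-Nd4l, the end of mt-Co1 and the beginning of mt-Nd4. The pseudogenes Gm28661, Gm10925, Gm28437 and Gm10222 match mt-Co2, mt-Atp6, mt-Co3 and mt-Nd4l at every base of 681, 678, 783 and 294 bases. The opening 90 bases of mt-Co2 (chrM:7013-7102, plus strand) and of Gm28661 (chr1:24615476-24615565, minus strand) are shown because they are identical, so a read from here fits both places. The opening 60 bases of mt-Nd3 (chrM:9459-9518) and of its copy Gm28438 (chr1:24613060-24613119, minus strand) are shown because they hold the only difference in 345 aligned bases, T3C, counted from the start of mt-Nd3 with the mitochondrial base named before the position. Capitals mark that base, and all sequences are from GENCODE transcripts.
mt-Co2: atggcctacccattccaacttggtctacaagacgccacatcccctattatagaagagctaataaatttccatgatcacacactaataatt
Gm28661: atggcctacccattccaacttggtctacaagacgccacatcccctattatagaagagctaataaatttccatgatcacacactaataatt
mt-Nd3: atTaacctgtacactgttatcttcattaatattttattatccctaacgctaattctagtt
Gm28438: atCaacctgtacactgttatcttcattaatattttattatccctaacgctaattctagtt

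Mitochondrial genes also overlap each other. The coding sequence of mt-Atp8 ends inside mt-Atp6, over 43 bases of the same strand, and mt-Nd4l ends inside mt-Nd4 over 7 bases. The last part of each (chrM:7897-7969 and chrM:10134-10173, both plus strand) is shown with the shared bases in capitals. mt-Nd5 and mt-Nd6 overlap by 14 bases on opposite strands, and no source used here says whether the counting used strand.
mt-Atp8 end: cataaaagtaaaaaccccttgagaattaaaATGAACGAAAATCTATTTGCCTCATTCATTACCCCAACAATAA
mt-Nd4l end: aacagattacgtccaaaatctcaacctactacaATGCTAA

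Mitochondrial RNA made up a larger share of the counts in every mutant library than in any wildtype library. All 37 genes together held 7.02, 5.47 and 6.17% of gene counts in mutant replicates 1 to 3 and 2.41, 3.62 and 4.29% in wildtype replicates 1 to 3. The means were 6.22 ± 0.777% and 3.44 ± 0.957% (SD, n = 3 each), a difference of 2.78 percentage points. These are sums over the members and carry no test. In whole corneas, a different mix of cells and a different amount of mitochondrial RNA per cell cannot be told apart.

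The rRNAs held most of this. They took 6.35, 5.0 and 5.58% of gene counts in the mutant libraries and 2.08, 3.29 and 3.89% in the wildtype libraries. The mRNAs took 0.679, 0.473 and 0.587% against 0.322, 0.331 and 0.405%, with almost no counts from those wholly inside the copied block. The tRNAs took 0.000350 ± 8.92e-05% and 0.000335 ± 6.95e-05% (SD, n = 3 each). For rRNAs and mRNAs the genotypes did not overlap, while the tRNA shares overlapped. Of protein-coding counts alone, mitochondrial mRNAs were 0.805 ± 0.157% in mutant and 0.475 ± 0.0707% in wildtype corneas.

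**Figure D1:**
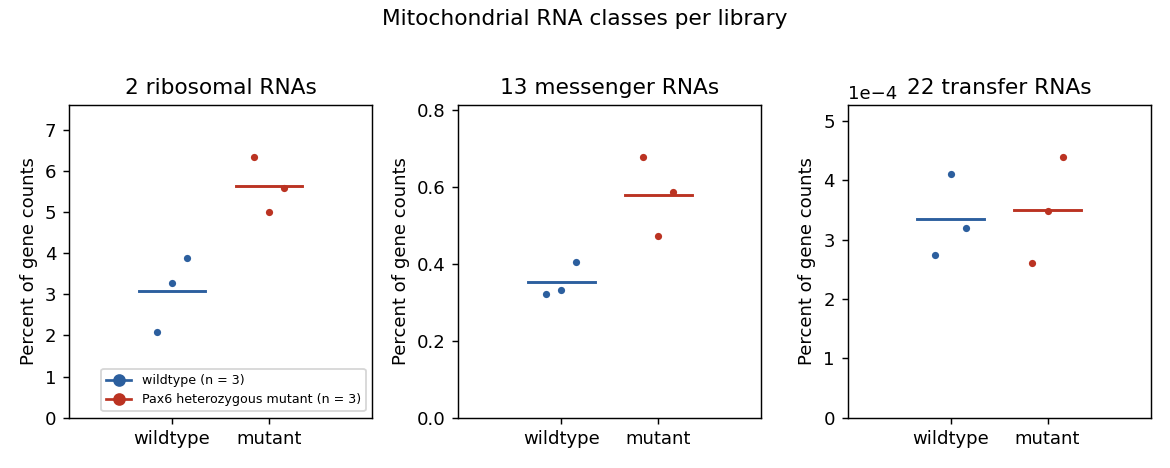
Percent of gene counts (vertical axes from 0, one scale per panel) taken by the rRNAs, mRNAs and tRNAs in each library, with bars at the group means. All 3 mutant libraries lie above all 3 wildtype libraries for rRNAs (5.0 to 6.35% against 2.08 to 3.89%) and for mRNAs, and the groups mix for tRNAs.

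The rRNAs of the small and large mitochondrial ribosomal subunits, mt-Rnr1 (12S, ENSMUSG00000064337, chrM:70-1024) and mt-Rnr2 (16S, ENSMUSG00000064339, chrM:1094-2675), were the most abundant members. mt-Rnr1 stood at 16698, 12770 and 14475 CPM in mutant replicates 1 to 3 and at 5567, 8321 and 9928 CPM in wildtype replicates 1 to 3. mt-Rnr2 stood at 48784, 36626 and 40405 CPM in mutant and at 16823, 23469 and 27836 CPM in wildtype corneas. For both, every mutant library was above every wildtype library, and wildtype replicate 1 was the lowest of all.

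The log2 difference, mutant minus wildtype, was 0.88 ± 0.24 (SE) for mt-Rnr1 and 0.88 ± 0.25 for mt-Rnr2, or 1.85-fold for each. Neither passed the threshold in edgeR's test, with adjusted p = 0.059 and 0.063. Both had an unadjusted p below 0.05, as did 3616 of the 15209 tested genes. DESeq2 called both (adjusted p = 0.00028 and 9.7e-05), as did limma-voom (0.027 and 0.023), with 8.71 and 5.96% of all tested genes called higher by these tools. Without wildtype replicate 1, edgeR called both at 0.013, at log2 differences of 0.68 and 0.71, with 7.65% of all tested genes called higher. Without any other single library it called neither. Their adjusted p was 0.12 to 0.22 without a mutant library or wildtype replicate 2, and 0.05 and 0.056 without wildtype replicate 3. In those fits 2.14 to 3.58% of all tested genes were called higher.

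Per length, the rRNAs kept nearly the same proportion to each other in both genotypes. The level of mt-Rnr2 in CPM per kb was 1.73 ± 0.0395 times that of mt-Rnr1 in mutant and 1.74 ± 0.0733 times in wildtype corneas (SD, n = 3 each). Counts of rRNAs over counts of mRNAs were 9.35, 10.6 and 9.51 in mutant and 6.47, 9.93 and 9.61 in wildtype libraries. The groups overlapped, and wildtype replicate 1 alone lay below 9. The 6 mRNAs wholly inside the copied block added at most 67 counts each to a library, so this is a ratio of counts and not of RNA amounts.

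Other abundant structural RNAs are given beside the rRNAs. Gm26917 is annotated on chromosome 17 at a copy of the nuclear rRNA precursor. It took 4.07, 3.63 and 3.57% of counts in mutant and 2.20, 2.32 and 2.38% in wildtype libraries (log2 difference 0.71 ± 0.19, adjusted p = 0.053). Its neighbour Gm42418 differed by 0.16 ± 0.17 (adjusted p = 0.64), and the most abundant gene of all, Gm23935, by -0.15 ± 0.24 (adjusted p = 0.76). Mitochondrial rRNA counts over Gm26917 counts were 1.56, 1.38 and 1.56 in mutant and 0.945, 1.42 and 1.64 in wildtype libraries, which overlap. Kits of this type include a step that removes rRNA-derived cDNA, and its part in the rRNA values was not tested.

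Among the mRNAs, 3 of the 10 tested were called, all higher in mutant corneas: mt-Co1, mt-Cytb and mt-Nd1, read against the 5.59% of all tested genes called higher. None was called lower. The median log2 difference over the 10 tested mRNAs was 0.56, beside 0.01 over all tested genes. In 4 of the 10 the mutant libraries all lay above the wildtype libraries, beside 17.1% of all tested genes. mt-Nd3, mt-Nd4l and mt-Atp8 did not pass the low-count filter.

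Complex IV passes electrons to oxygen, and mt-Co1 (ENSMUSG00000064351, chrM:5328-6872) encodes its catalytic subunit. mt-Co1 stood at 2649, 1866 and 2008 CPM in mutant and 1197, 1162 and 1407 CPM in wildtype replicates. The mutant libraries were all higher, replicate 1 most of all. The log2 difference was 0.79 ± 0.17 (SE, adjusted p = 0.027), or 1.73-fold.

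Complex III contains 1 mitochondrially encoded subunit, cytochrome b, from mt-Cytb (ENSMUSG00000064370, chrM:14145-15288). Its level was 1567, 1027 and 1321 CPM in mutant and 743, 676 and 865 CPM in wildtype replicates. Again the genotypes did not overlap. The log2 difference was 0.78 ± 0.18 (SE, adjusted p = 0.034).

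Complex I takes electrons from NADH, and 7 of its subunits come from mitochondrial DNA. mt-Nd1 (ENSMUSG00000064341, chrM:2751-3707), a subunit next to the ubiquinone site, stood at 586, 456 and 567 CPM in mutant and 354, 326 and 392 CPM in wildtype replicates. All mutant values were higher, and the log2 difference was 0.59 ± 0.14 (SE, adjusted p = 0.038). mt-Nd5, a proton-pumping subunit, stood at 1298, 760 and 1057 CPM against 580, 583 and 676 CPM. Its mutant libraries were also all higher, but at a log2 difference of 0.76 ± 0.20 its adjusted p of 0.0501 missed the threshold narrowly.

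All 3 calls held without wildtype replicate 1 (adjusted p = 0.02 for mt-Co1 and 0.032 for the others), but not without most other libraries. mt-Co1 lost its call without mutant replicate 1, 2 or 3 or wildtype replicate 2 (adjusted p = 0.052 to 0.089). mt-Cytb lost it without mutant replicate 1 or 3 or wildtype replicate 2 or 3 (0.053 to 0.13), and mt-Nd1 without those same 4 (0.068 to 0.16). All 3 kept a higher mutant level each time, with log2 differences from 0.52 to 0.92. In the fits without a mutant library or without wildtype replicate 2 or 3, 2.14 to 3.58% of all tested genes were called higher.

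The other complex I mRNAs that passed the filter were not called. mt-Nd4, a proton-pumping subunit, stood at 516, 295 and 432 CPM in mutant and 270, 224 and 302 CPM in wildtype replicates (0.64 ± 0.21, adjusted p = 0.11). mt-Nd2, a related pumping subunit, stood at 303, 215 and 332 CPM against 273, 184 and 232 CPM (0.30 ± 0.20, adjusted p = 0.42). In both, mutant replicate 2 fell among the wildtype libraries.

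mt-Nd6 is the sole mRNA encoded on the strand opposite to the other 12. It stood at 77.7, 47.6 and 51.6 CPM in mutant and 38.8, 41.2 and 49.2 CPM in wildtype replicates (log2 difference 0.45 ± 0.20, adjusted p = 0.22). Mutant replicate 1 was apart from the rest and the groups overlapped.

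**Figure D2:**
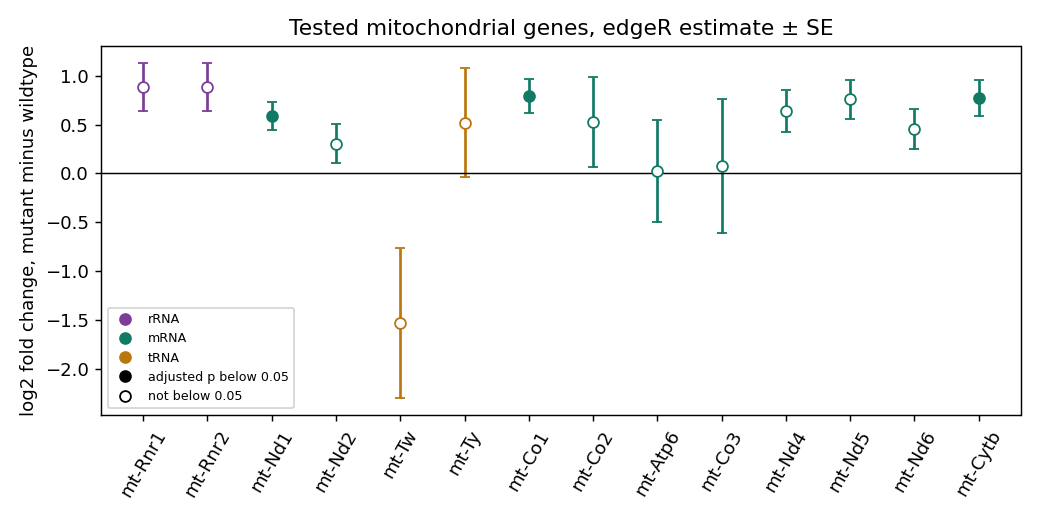
Log2 fold change, mutant minus wildtype (vertical axis), with the SE as bars, for the 14 mitochondrial genes that passed the low-count filter, in genome order. Filled points mark the 3 called mRNAs, and the rRNAs at 0.88 are open because their adjusted p was 0.059 and 0.063.

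The 6 mRNAs wholly inside the block copied to chromosome 1 were almost without counts in every library. mt-Co2 (a complex IV subunit that takes electrons from cytochrome c) had 46, 42 and 54 counts in mutant and 23, 28 and 44 in wildtype replicates. mt-Atp6 (part of the proton channel of ATP synthase) had 40, 39 and 53 against 26, 67 and 30. mt-Co3 (a core subunit of complex IV) had 18, 14 and 20 against 8, 13 and 27. In mt-Atp6 and mt-Co3 the highest library was a wildtype one, and the groups overlapped in all 3.

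These 3 passed the filter, and their log2 differences were 0.53 ± 0.46 for mt-Co2, 0.02 ± 0.52 for mt-Atp6 and 0.07 ± 0.69 for mt-Co3 (adjusted p = 0.56, 0.98 and 0.97). mt-Atp8, the other mitochondrial ATP synthase subunit, had 1, 2 and 1 counts in mutant and 4, 5 and 0 in wildtype replicates. mt-Nd4l, of complex I, had 9, 5 and 12 against 6, 2 and 4. mt-Nd3, also of complex I, had 2, 4 and 2 counts in mutant replicates and 0 in all 3 wildtype replicates, where 0 counts over the group allow up to 0.0555 CPM. This bound allows for sampling noise only. It covers counted reads only, because reads with several alignments are under no gene. No difference was detectable in the few counts of these genes.

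By contrast the 7 mRNAs not wholly inside the block had 683 to 44601 counts per library, and all 7 passed the filter with log2 differences above 0, from 0.30 to 0.79. Together they held 99.8 to 99.9% of mitochondrial mRNA counts. Per length, in mutant and wildtype corneas, mt-Co1 stood at 1407 and 812 CPM per kb, mt-Cytb at 1141 and 666, and mt-Nd5 at 569 and 336. mt-Nd1 stood at 560 and 373, mt-Nd4 at 301 and 193, mt-Nd2 at 273 and 221, and mt-Nd6 at 114 and 82.9. The 6 inside the block ranged from 0.355 to 3.69 CPM per kb in mutant and from 0 to 3.37 in wildtype corneas. These values use full gene length. Length was also taken as the number of 100-base windows without an exact copy in an annotated nuclear transcript. On that measure mt-Co1 stood at 1255 and mt-Cytb at 729 CPM per kb in wildtype corneas. There mt-Nd4 (529) stood above mt-Nd1 (417) and mt-Nd5 (355), with mt-Nd2 at 253 and mt-Nd6 at 102. A gene has fewer windows than bases, so values rose also for genes without a copied window, such as mt-Cytb.

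**Figure D3:**
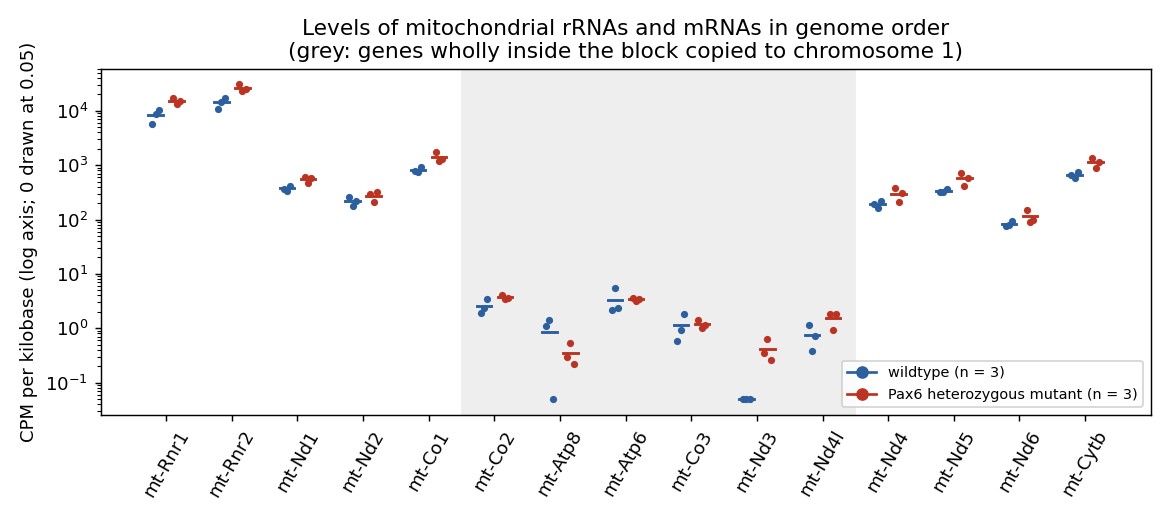
CPM per kb on a log axis for the rRNAs and mRNAs in genome order, 1 point per library and bars at group means, with genes wholly inside the copied block on grey. Points on grey reach at most 5.59 CPM per kb (mt-Atp6, wildtype replicate 2), every other gene lies at 74.7 (mt-Nd6, wildtype replicate 1) or above, and the rRNAs lie highest.

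The share of each gene with an exact copy in an annotated nuclear transcript was counted in windows of 100 bases, the read length. Nuclear DNA outside annotated transcripts was not searched, so copies there are missed. It was 99.5% for mt-Co2 and mt-Atp6, 99.9% for mt-Co3, 97.6% for mt-Nd3 and 98.5% for mt-Nd4l. It was 60.8% for mt-Nd4, 30.8% for mt-Co1, 3.19% for mt-Nd2 and 0% for both rRNAs, mt-Nd1, mt-Nd5, mt-Nd6 and mt-Cytb. mt-Atp8 also scored 0% because no annotated pseudogene holds 100 of its bases in a row exactly. Its last 43 bases, shared with mt-Atp6, match Gm10925, and the rest corresponds to part of the gap of 233 bases between Gm28661 and Gm10925.

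The count files place reads with several alignments on a line of their own and under no gene. That line held 2.83 to 4.40% of all entries per library, and how much of it came from mitochondrial RNA was not tested. For these 6 mRNAs, little RNA and reads set aside for several alignments cannot be told apart. The copies themselves had few counts too, except Gm28438, which had 214, 212 and 305 counts in mutant and 103, 158 and 139 in wildtype replicates, while mt-Nd3 had 0 to 4. Every mutant library was above every wildtype one in Gm28438 (log2 difference 0.79 ± 0.24, adjusted p = 0.079). The other copies in the block with at least 10 counts on average were Gm28437, Gm10925, Gm28661 and Gm29216, with 4 to 45 counts per library and none called.

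**Figure D4:**
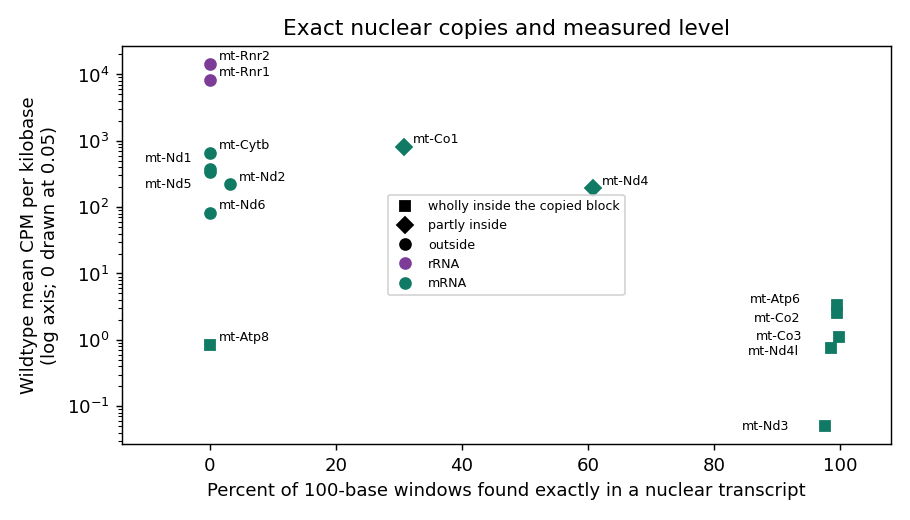
Wildtype mean CPM per kb (log axis) against the percent of 100-base windows with an exact copy in a nuclear transcript, for the rRNAs and mRNAs. The 5 genes at 97.6 to 99.9% lie at or below 3.37 CPM per kb, mt-Atp8 lies low at 0%, and mt-Nd4 and mt-Co1, copied in part, lie at 193 and 812 CPM per kb.

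The proportions among the mRNAs were compared within each library, free of the scaling to nuclear genes. mt-Co1 was 37.5 ± 2.59% of mitochondrial mRNA counts in mutant and 35.6 ± 0.872% in wildtype corneas (SD, n = 3 each), with overlap. mt-Nd2 was 4.33, 4.60 and 5.75% in mutant against 7.88, 5.76 and 5.90% in wildtype replicates. mt-Nd1 (9.32 against 10.1%) and mt-Nd6 (1.01 against 1.22%) also had every mutant library below every wildtype one. For mt-Nd2 and mt-Nd6 the nearest libraries almost touched. Divided by the mitochondrial mRNA counts in the same way, 45.6% of all tested genes had every mutant library below every wildtype one.

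With library sizes set to the mitochondrial mRNA sum, edgeR called none of the 10 tested mRNAs. The log2 difference of mt-Nd2 on that scale was -0.41 ± 0.24 (adjusted p = 0.20). On the same scale 28.1% of all tested genes were called lower and 2.63% higher, 30.7% in all.

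The tRNAs, which carry amino acids to the mitochondrial ribosome, were at the edge of detection. They are 59 to 75 bases long, shorter than the reads of 100 bases. Of the 22, 11 had no count in any library, and 19 never reached 10 counts. With sampling noise alone, 0 counts over a group allow up to 0.0529 CPM in the mutant and 0.0555 CPM in the wildtype group. Replicates differed by more than sampling noise, so these bounds may be too low, and they cover counted reads only. Only mt-Ty (tyrosine) and mt-Tw (tryptophan) passed the filter, and neither was called by edgeR, DESeq2 or limma-voom, nor had an unadjusted p below 0.05. The sequences of the 3 with the most counts are given with the anticodon in capitals (mt-Ty chrM:5260-5326, minus strand, mt-Tw chrM:4950-5016 and mt-Tm chrM:3845-3913, plus strand).
mt-Ty: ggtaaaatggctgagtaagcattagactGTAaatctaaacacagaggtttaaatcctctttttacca
mt-Tw: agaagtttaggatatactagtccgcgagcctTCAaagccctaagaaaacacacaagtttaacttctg
mt-Tm: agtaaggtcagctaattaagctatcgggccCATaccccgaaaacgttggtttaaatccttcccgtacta

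mt-Ty had 27, 33 and 35 counts in mutant and 16, 31 and 16 in wildtype replicates (log2 difference 0.52 ± 0.56, adjusted p = 0.64). mt-Tw had 4, 3 and 13 against 18, 20 and 15 (-1.53 ± 0.77, adjusted p = 0.28). It was the 1 tRNA whose mutant libraries all lay below the wildtype ones, as did those of 14.7% of all tested genes. mt-Tw shares 2 bases with the end of mt-Nd2.

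mt-Tm (methionine) had 5, 8 and 31 counts in mutant and 8, 8 and 9 in wildtype replicates, so that mutant replicate 3 alone stood out. mt-Tp (proline) had 4, 1 and 4 against 1, 2 and 9, mt-Tq (glutamine) 2, 1 and 0 against 7, 1 and 8, and mt-Ti (isoleucine) 1, 8 and 2 against 0, 6 and 1. None of these 4 was tested, and their groups overlapped. The remaining 5 with any count had at most 5 in a library.

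Few nuclear genes of mitochondrial gene expression were called. Of 94 tested genes in 5 lists, 1 was called higher and 1 lower (2.13%, beside 10.1% of all tested genes), and their median log2 difference was 0.01. The polymerase Polrmt stood at 19.4 ± 2.96 CPM in mutant and 24.5 ± 6.04 CPM in wildtype corneas (-0.34 ± 0.22, adjusted p = 0.41). Tfam, which packages mitochondrial DNA and helps start transcription, stood at 9.50 ± 1.28 and 12.2 ± 1.46 CPM (-0.36 ± 0.22, adjusted p = 0.39). The initiation factor Tfb2m (-0.11 ± 0.28) and the elongation factor Tefm (0.31 ± 0.60) were not called either (adjusted p = 0.85 and 0.82).

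The called genes were Dguok and Ppargc1b. Dguok, a kinase that supplies deoxynucleotides for mitochondrial DNA, had 12.4, 10.5 and 12.5 CPM in mutant and 20.8, 23.3 and 19.3 CPM in wildtype replicates. The groups were well apart, and the log2 difference was -0.84 ± 0.18 (SE, adjusted p = 0.022). Ppargc1b, a transcriptional coactivator of mitochondrial biogenesis, had 22.3, 24.9 and 21.4 against 14.5, 14.3 and 15.2 CPM. It was higher by 0.64 ± 0.16 (adjusted p = 0.038). Leaving out single libraries raised the adjusted p to as much as 0.087 for Dguok and 0.14 for Ppargc1b, and 4 and 5 of the 6 such fits respectively lost the call.

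By list, 1 of 18 tested genes of transcription and DNA maintenance was called, 0 of 33 of RNA processing, modification and decay, 0 of 23 aminoacyl-tRNA synthetases, 0 of 11 translation factors and 1 of 9 biogenesis regulators. An unadjusted p below 0.05 was found for 1, 5 and 0 genes in the 3 lists without a call, beside 3616 of all 15209 tested genes. DESeq2 called 0, 1 and 0 genes of these lists, and limma-voom 0 in each. Of all tested genes DESeq2 called 15.5% and limma-voom 10.7%.

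Nuclear-encoded subunits of the same respiratory complexes were not called. The tested subunits were 36 of complex I, 9 of complex III, 15 of complex IV and 16 of complex V (ATP synthase). Of these 76, edgeR called 0, beside 10.1% of all tested genes, and 2 had an unadjusted p below 0.05. DESeq2 called 1, beside 15.5% of all tested genes, and limma-voom 0, beside 10.7%. Their median log2 difference was 0.05, and 44 of the 76 lay above 0. Of all 15209 tested genes, 3616 had an unadjusted p below 0.05 and 7719 lay above 0. The difference between the mitochondrial and the nuclear lists was not tested.

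**Figure D5:**
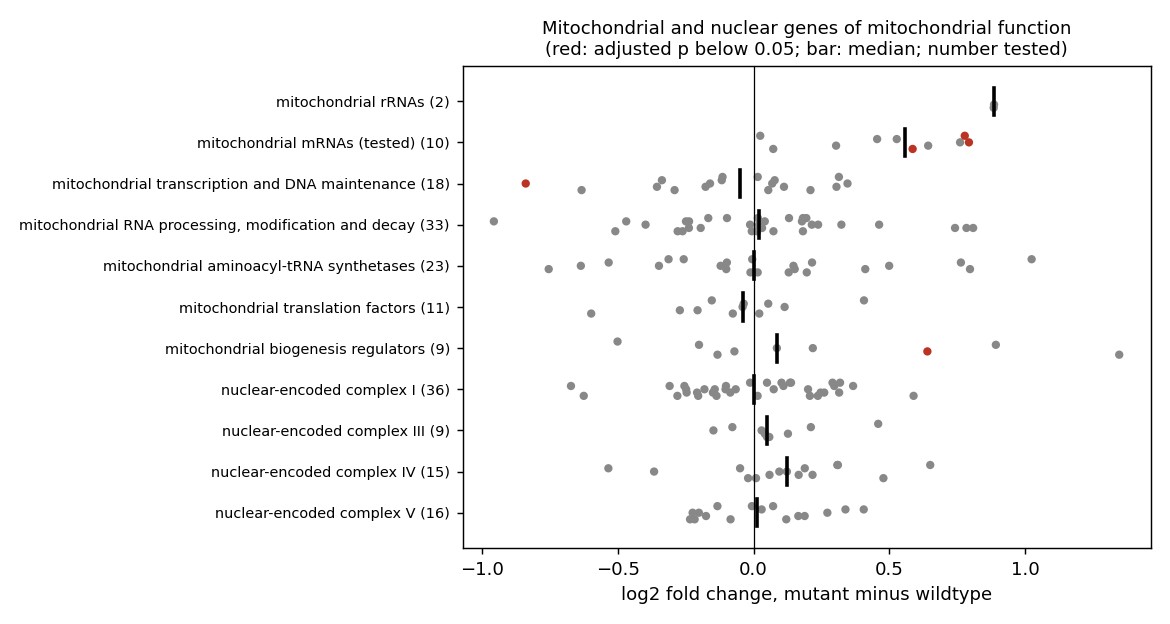
Log2 fold change, mutant minus wildtype (horizontal axis), 1 point per tested gene, for the mitochondrial rRNAs and mRNAs and for 9 lists of nuclear genes, with black bars at medians and called genes in red. The nuclear medians lie near 0, the mitochondrial mRNAs at 0.56 and the rRNAs at 0.88.

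Sums of cell type markers differed between genotypes beside these values. Whether numbers of cells or expression per cell differed was not tested. Summed CPM of corneal epithelium markers ran from 17753 to 24159 in mutant and from 37954 to 51937 in wildtype libraries (5 of 7 tested genes called lower). That list includes Pax6 itself and Krt12, which stood at 5237 CPM in mutant and 18455 CPM in wildtype corneas on average. Sums were higher in all mutant libraries for conjunctival and goblet (6334 to 7667 against 396 to 676), leukocyte (223 to 271 against 49.0 to 57.5) and stromal markers (795 to 4817 against 447 to 518). They were also higher for corneal endothelium (1072 to 1433 against 566 to 691) and vascular endothelium markers (47.1 to 106 against 2.78 to 39.3). Called higher were 6 of 9 tested conjunctival and goblet genes, 7 of 8 leukocyte genes and 5 of 9 stromal genes, with 1 stromal gene lower. For corneal endothelium it was 1 of 5, and for vascular endothelium 0 of 5. Of all tested genes 5.59% were called higher and 4.46% lower. No marker list had a gene at 0 in all libraries. Their part in the mitochondrial values was not tested.

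Photoreceptor and muscle markers had sums of up to 1768 and 51.7 CPM in wildtype replicate 3, and of at most 72.9 and 3.80 CPM in every other library. Wildtype replicate 3 also had the highest mitochondrial share of the wildtype libraries. Without it the log2 differences of mt-Rnr1 and mt-Rnr2 were 1.05 and 1.03. Wildtype replicate 1 had the lowest sum of pigment epithelium and melanocyte markers, 9.82 CPM against 189 to 414 in the other libraries. It also had the lowest sum of vascular endothelium markers (2.78 against 30.7 to 106) and the lowest mitochondrial share of all libraries. Any part of these other tissues in the mitochondrial values was not tested.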

How the data were processed

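Whole-cornea total RNA was sequenced as paired reads of 100 nucleotides after a stranded low-input kit, per the labels' protocols. The deposited values are raw counts per Ensembl gene, made by the authors with Trim Galore, HISAT2, SAMtools and HTSeq on GRCm38, and edgeR is also listed, per the submitters' processing notes. The sources used here give no versions or settings. Lines naming no gene were left out: no feature 13.6 to 17.4% of all entries, ambiguous 0.534 to 0.972%, low quality 2.71 to 2.79%, not aligned 28.2 to 31.7% and several alignments 2.83 to 4.40%. Of 55421 identifiers, 55240 matched GENCODE M21.

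All genes with enough counts (filterByExpr, minimum count 10 and total 15) were fitted together with edgeR 4.0.16 (TMM, quasi-likelihood, genotype only), and SE is the log2 difference over the square root of F. DESeq2 1.42.0, limma 3.58.1, other scalings and filters and leaving out each library were alternatives. Scripts were tested on simulated data. Nuclear copies were found with blastn 2.17.0 (at least 90% identity over 100 bases). All 37 members were accounted for. Values per library were given for the rRNAs, the mRNAs and the 6 tRNAs with the highest mean count. Of the nuclear copies kept, those with at least 10 counts on average were named, with the called genes of each list and Polrmt, Tfam, Tfb2m and Tefm. Replicates differed by more than sampling noise (chi-square over its degrees of freedom, 19.4 to 60.1). Apart from the design's word biological, nothing says how replicates were separate, so p-values measure the spread between these samples. Members and lists were chosen with earlier results of these data known.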

Additional observations from a re-analysis of the deposited data

How the results depend on the processing

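Under 14 alternatives Pax6, the count of tRNAs called (0) and the counts of mRNAs and rRNAs called lower (0) did not change. The 3 mRNAs called higher became 5 with DESeq2 and 5 with no low-count filter, beside 8.71 and 5.53% of all tested genes called higher. They became 4 with library totals only, with scaling by nuclear genes, with limma-voom and with a filter of 1 CPM in 3 libraries. In those fits 5.42 to 6.4% of all tested genes were called higher. Leaving out single libraries gave 0 to 4, beside 2.14 to 7.65% of all tested genes. The 0 rRNAs called became 2 with DESeq2, 2 with limma-voom, 1 with no filter and 0 to 2 without single libraries, the 2 being without wildtype replicate 1. Among genes of mitochondrial gene expression the 1 called higher became 0 to 1 without single libraries. The 1 called lower became 2 with DESeq2, 3 with no filter and 0 to 1 without single libraries. DESeq2 called 6.79% of all tested genes lower, and the fit with no filter 3.96%. Among respiratory subunits, 1 was called higher with DESeq2, 1 lower with no filter and 0 to 1 lower without single libraries. Scaling to the mitochondrial mRNA sum took the mRNAs called higher from 3 to 0. The cause of these changes was not tested. The tRNA share difference ran from -3.04e-05 to 5.88e-05 percentage points without single libraries, negative without mutant replicate 3 or wildtype replicate 1. The log2 difference of mt-Atp6 was -0.012 with upper-quartile factors and -0.21 to 0.60 without single libraries, and that of mt-Co3 -0.24 to 0.60. mt-Nd5 passed the threshold under 7 of 14 alternatives. The rRNA, mRNA and total shares kept their direction throughout. No paired analysis was possible because the labels give no replicate numbers shared by the genotypes, and the numbers 1 to 3 used here only name the libraries. With 3 libraries a genotype and few counts in the tRNAs and in the copied mRNAs, differences there were not detectable in these counts.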

Other observations

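Some nuclear pseudogenes outside the chromosome 1 block also had at least 10 counts on average, although they differ from mitochondrial DNA at many bases. The others kept had 0 to 8 counts per library. Gm13340 on chromosome 2 (chr2:22588103-22589647, minus strand) matches mt-Co1 over its 1545 bases with 37 differences. The opening 90 bases of both (chrM:5328-5417 and chr2:22589558-22589647) are shown with the differing bases in capitals.
mt-Co1: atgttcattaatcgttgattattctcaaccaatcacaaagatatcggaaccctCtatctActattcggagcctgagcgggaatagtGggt
Gm13340: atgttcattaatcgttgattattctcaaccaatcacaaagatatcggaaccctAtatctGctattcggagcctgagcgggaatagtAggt

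Gm13340 had 949, 807 and 1020 counts in mutant and 513, 487 and 564 in wildtype replicates, with no overlap. Its log2 difference was 0.77 ± 0.15 (SE) with adjusted p = 0.014 in edgeR's quasi-likelihood test, beside 0.79 for mt-Co1. Gm4076 on chromosome 13, which matches part of mt-Nd5 at 95.2% of 954 bases, had 1057, 732 and 1079 counts against 436, 484 and 675. It differed by 0.80 ± 0.21 (adjusted p = 0.053), beside 0.76 for mt-Nd5. Gm13339, next to Gm13340 and matching part of mt-Nd2, had 16 to 42 counts and was not called. The 16 pseudogenes kept, the 7 inside the block included, together held 1155 to 2584 counts per library. Any match on a chromosome that was left out is not in this sum. Adding the 16 to the mitochondrial genes left the total shares at 6.23 ± 0.779% in mutant and 3.45 ± 0.958% in wildtype corneas (SD, n = 3 each).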
